A study of Mus musculus with 10 samples.

Results

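The genes described here are the tumour suppressor p53 (Trp53), the Gadd45 family and p53 targets that act in stress responses: Trp53, Mdm2, Phlda3, Gadd45a, Gadd45b, Gadd45g, Ccng1, Bax, Sesn2 and Trp53inp1. They were chosen by gene symbol, and every array feature that carries 1 of these 10 symbols was taken, without regard to its values. This gave 9 of the 62976 features on the array, for 8 of its 20738 named genes. Trp53inp1 had 2 features and each of the other 7 genes had 1. Trp53 and Bax had no feature named for them and were not analysed here. All 9 features passed the filter on low values.

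Gene expression was measured in cultured mouse cells on 10 single-colour (Cy3) Agilent arrays, each with 1 sample. The ieSCs, the name the submitters give to embryonic Sertoli-like cells produced from fibroblasts, came from female tail tip fibroblasts (TTFs) on 4 arrays and from mouse embryonic fibroblasts (MEFs) on 4 arrays, and MEFs themselves, the control, were on 2. All groups came from a congenic strain homozygous for R26-M2rtTA, the doxycycline-dependent transactivator expressed from the Rosa26 locus, and had 2 weeks of culture in F12/DMEM without doxycycline. Both kinds of ieSC carried transgenes for Nr5a1, Wt1, Dmrt1, Gata4 and Sox9, and no transgene is listed for the MEFs. TTFs were not analysed here, so the MEF-derived ieSCs could be set against their own starting cell type and the TTF-derived ieSCs could not. The ieSC arrays of each origin bear the names 1 and 2 with 2 arrays each, called 1a, 1b, 2a and 2b below, and the MEF arrays are called 1 and 2. Nothing in the labels places arrays that share a name in separate cultures, or different names in separate animals. The p-values therefore measure spread among these arrays and names that could be technical in part.

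p53 is a transcription factor that is held low by Mdm2, a ubiquitin ligase whose own gene p53 activates. DNA damage and other stress stabilise the p53 protein, and its targets then arrest the cell cycle, repair DNA, dampen growth signals or start apoptosis. The Gadd45 proteins are small and have no enzymatic activity of their own: they bind and activate the kinase Map3k4 upstream of p38 and Jnk, and they bind Cdk1 and Pcna. Gadd45a is a p53 target, Gadd45b is known as a target of NF-kB and TGF-beta signalling, and Gadd45g acts in the XY gonad of the mouse embryo, where it is needed, with Map3k4 and p38, for Sry to be expressed in time. Much of the control of p53 is on its protein, which arrays do not measure.

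The sequences just upstream of 5 of these genes are shown because Gadd45a lay above the MEF arrays and Gadd45b and Gadd45g below them on all ieSC arrays, and because Mdm2 and Ccng1 are p53 targets that differed between the origins in the same direction. The windows come from RefSeq on the build GRCm38.p6 and hold the 250 bases before an annotated start, written 5′ to 3′ on the gene's strand. The Ccng1 gene is annotated as far as chr11:40755309, so the 3′ end of its window lies inside the gene. Capitals mark matches, on either strand, to the p53 half-site consensus, to CCAAT, to TATAAA and to the octamer ATTTGCAT, and no 2 matches overlap in these 5 windows. Of the 10 genes, 9 had such a window and Trp53inp1 was not in the table. Gadd45a lies at chr6:67037408-67037657 on the minus strand, Gadd45b at chr10:80929841-80930090 on the plus strand, Gadd45g at chr13:51846425-51846674 on the plus strand, Mdm2 at chr10:117710759-117711008 on the minus strand and Ccng1 at chr11:40755287-40755536 on the minus strand.
Gadd45a: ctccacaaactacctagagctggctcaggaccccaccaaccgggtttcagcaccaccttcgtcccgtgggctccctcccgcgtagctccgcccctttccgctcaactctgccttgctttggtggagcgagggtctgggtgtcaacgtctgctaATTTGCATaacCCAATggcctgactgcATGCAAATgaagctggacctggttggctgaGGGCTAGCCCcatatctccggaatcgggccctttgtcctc
Gadd45b: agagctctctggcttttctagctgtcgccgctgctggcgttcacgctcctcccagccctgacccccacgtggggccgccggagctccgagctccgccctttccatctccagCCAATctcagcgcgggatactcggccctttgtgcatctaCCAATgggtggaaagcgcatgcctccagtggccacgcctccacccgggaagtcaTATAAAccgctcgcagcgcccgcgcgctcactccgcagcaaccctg
Gadd45g: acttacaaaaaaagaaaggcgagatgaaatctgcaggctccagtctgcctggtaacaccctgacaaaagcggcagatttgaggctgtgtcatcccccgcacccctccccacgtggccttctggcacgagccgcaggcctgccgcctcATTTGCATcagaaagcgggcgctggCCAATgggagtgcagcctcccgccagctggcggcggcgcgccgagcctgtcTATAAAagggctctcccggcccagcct
Mdm2: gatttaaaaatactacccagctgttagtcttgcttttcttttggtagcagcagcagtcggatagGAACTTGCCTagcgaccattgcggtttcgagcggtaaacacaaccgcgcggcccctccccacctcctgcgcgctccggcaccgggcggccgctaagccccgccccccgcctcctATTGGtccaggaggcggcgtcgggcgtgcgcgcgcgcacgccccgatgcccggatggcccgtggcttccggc
Ccng1: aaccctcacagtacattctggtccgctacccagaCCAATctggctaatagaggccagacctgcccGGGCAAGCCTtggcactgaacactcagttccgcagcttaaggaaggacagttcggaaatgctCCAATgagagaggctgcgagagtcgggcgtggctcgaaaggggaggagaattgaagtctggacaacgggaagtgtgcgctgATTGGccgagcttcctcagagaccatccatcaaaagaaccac

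Positions below count back from the 3′ end of each window and give the first base of a match. The Gadd45a window held 2 octamers, at -97 and -70, with a CCAAT between them at -86 and a p53 half-site match at -40. The Gadd45g window held an octamer at -103, a CCAAT at -78 and a TATAAA at -27. The Gadd45b window held CCAAT at -139 and -100 and TATAAA at -46, and neither an octamer nor a half-site match. Mdm2 had a half-site match at -186 and a CCAAT at -72, and Ccng1 had a half-site match at -185 and CCAAT at -216, -123 and -42. Phlda3, a p53 target that also was lower in TTF-derived than in MEF-derived ieSCs, had a window that is not printed. That window held no match to any of these motifs. Among all 32851 windows in the table, 7.13% held a p53 half-site match, 33.8% a CCAAT, 12.4% a TATAAA and 1.60% an octamer, and 0.0974% held 2 or more octamers. Among the 9 windows of this set, 5 held a half-site match, 7 a CCAAT, 3 a TATAAA and 2 an octamer. Several of these genes were picked as p53 targets, so their half-site count is not independent of that choice, and the best-known p53 sites of Mdm2 and Gadd45a lie in introns outside these windows. A match describes letters and was not tested as a binding site.

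Levels are given as log2 intensity, on a scale that ran from 0.288 to 19.02 in these files. Values below about 5.0, near the 40th percentile of each array (4.99 to 5.02), belong to the dim end, where a log2 difference does not measure a ratio of transcripts. Markers of the labelled cell type were mixed, with 7 of 13 tested Sertoli markers higher and 5 lower over all ieSCs than in MEFs (4 and 4 with names averaged). Wt1 averaged 17.06 in TTF-derived and 17.12 in MEF-derived ieSCs, against 11.49 in MEFs, while Sox9 averaged 7.48 and 7.96, against 11.18 in MEFs. Both are among the transgenes of the ieSCs, and whether their features read transgene or endogenous transcripts was not tested. Of the markers that are not transgenes, Dhh averaged 13.20 in TTF-derived and 12.20 in MEF-derived ieSCs, against 5.47 in MEFs. Kitl averaged 11.83 and 11.94, against 8.48 in MEFs. Cldn11 went the other way, with 4.81 and 5.13, near the dim end, against 6.39 in MEFs. Amh and Fshr, a hormone and a receptor of Sertoli cells, were at the dim end and below the filter. Of 12 fibroblast markers 8 were lower and 0 higher, and all 12 macrophage markers were lower. Of all named genes, 27.2% were higher and 24.5% lower in this comparison. The mean level of the macrophage markers was 5.79 to 5.97 on the TTF-derived arrays and 5.88 to 6.18 on the MEF-derived arrays, against 11.78 and 11.79 on the MEF arrays. C1qa, a complement gene that defines macrophages, averaged 3.98 in TTF-derived and 4.03 in MEF-derived ieSCs, at the dim end, against 12.31 in MEFs. The part of macrophage transcripts in the differences from MEFs was not tested, and in bulk samples fewer cells of a type and less RNA per cell cannot be told apart.

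Differences were tested with limma over all 42617 features that passed the filter, with Benjamini-Hochberg adjustment over them and a threshold of 0.05 on the adjusted p, and are given as log2 difference ± standard error (SE). The comparisons of each kind of ieSC with MEFs share the same 2 MEF arrays. Where averaging the arrays of a shared name into 1 value (5 names in place of 10 arrays) ends a call, its adjusted p is given beside the result, since arrays of a name may be technical repeats. That fit has 2 residual degrees of freedom. Its MEF group is 1 value, which is assumed to vary like the ieSC names. Shares of all named genes, above and below, are from the fit to 10 arrays. Averaging names also called fewer features between the origins and for all and TTF-derived ieSCs against MEFs. These shares are therefore not like ones for counts with names averaged.

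The transcripts of 5 of the 8 measured genes were lower in TTF-derived than in MEF-derived ieSCs, and 1, Gadd45g, was higher (38.5% of the 16650 named genes passed this test, 17.8% higher and 20.7% lower). The 5 are Mdm2, Phlda3, Trp53inp1, Ccng1 and Gadd45a, with differences of -1.75 to -0.91. With names averaged 3 were lower, as Trp53inp1 and Ccng1 lost their calls, and 1 was higher. Against MEFs, the MEF-derived ieSCs had 4 genes higher and 2 lower (53.5% passed, 28.5% higher and 25.0% lower), the TTF-derived ieSCs had 1 higher and 2 lower (47.4%, 24.5% and 22.9%), and the mean of both kinds of ieSC had 1 higher and 2 lower (51.7%, 27.2% and 24.5%). With names averaged each of these comparisons with MEFs had 1 higher and 1 lower. The last 2 counts, 3 of 8 genes, are a smaller share than that of all named genes, so they set these genes apart from no others. The median difference over the 8 genes was -1.03 between the origins, 0.67 for MEF-derived ieSCs against MEFs and -0.20 for TTF-derived ieSCs against MEFs, beside medians of -0.05, 0.10 and 0.06 over all named genes. Every TTF-derived array lay above every MEF-derived array for 2 of the 8 genes and below for 5 (22.1% and 26.2% of all named genes). All MEF-derived arrays lay above both MEF arrays for 5 and below for 2 (42.0% and 34.4%), all TTF-derived arrays lay above for 1 and below for 4 (38.4% and 33.7%), and all ieSC arrays lay above for 1 and below for 2 (28.7% and 25.0%).

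**Figure D1:**
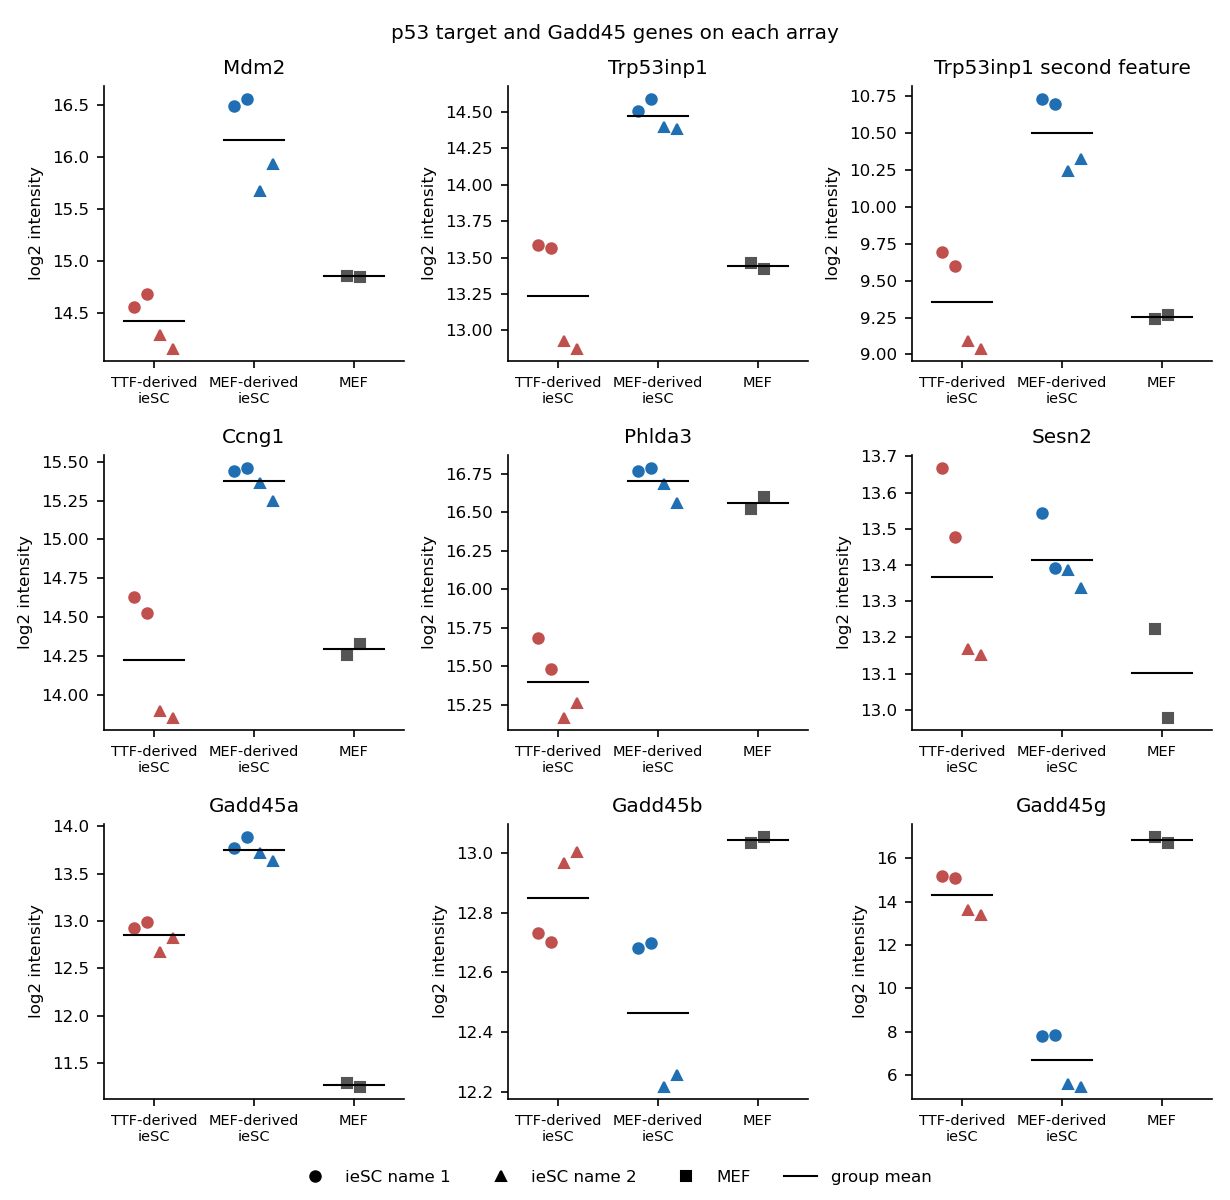
Log2 intensity of each p53 target and Gadd45 feature on every array, with TTF-derived ieSCs, MEF-derived ieSCs and MEFs from left to right, circles for ieSC name 1, triangles for ieSC name 2, squares for MEFs and a line at each group mean. Gadd45a lies above both MEF arrays on all 8 ieSC arrays, and Gadd45g reaches its lowest values, 5.60 and 5.48, on the MEF-derived arrays of name 2.

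Mdm2, the p53 inhibitor that is also a p53 target, had log2 intensities of 14.55, 14.68, 14.28 and 14.16 on TTF-derived arrays 1a, 1b, 2a and 2b, 16.49, 16.57, 15.68 and 15.93 on the MEF-derived arrays in the same order, and 14.86 and 14.85 on the MEF arrays. All 4 MEF-derived ieSC values stood above both MEF values and all 4 TTF-derived values stood below them. It was higher in MEF-derived ieSCs than in MEFs by 1.31 ± 0.27 (a fold of 2.48, limma adjusted p = 0.00306, and 0.0652 with names averaged). Between the origins the difference was -1.75 ± 0.22 (3.35-fold lower in TTF-derived ieSCs, adjusted p = 0.000308). The order of levels was MEF-derived ieSCs, MEFs, TTF-derived ieSCs, of which TTF-derived ieSCs and MEFs, neighbours in that order, were not separated by the test (-0.43 ± 0.27, adjusted p = 0.246).

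Trp53inp1 encodes a nuclear protein that, with the kinase Hipk2, favours activating phosphorylation of p53, and it also acts in autophagy. Its brighter feature read 13.58, 13.57, 12.93 and 12.88 on the TTF-derived arrays, 14.51, 14.59, 14.40 and 14.38 on the MEF-derived arrays and 13.46 and 13.42 on the MEF arrays. The MEF-derived values lay above all others, and the TTF-derived values of name 1 lay above the MEF arrays while those of name 2 lay below them. The difference was 1.03 ± 0.22 for MEF-derived ieSCs against MEFs (adjusted p = 0.0035, and 0.0801 with names averaged) and -1.23 ± 0.18 between the origins (adjusted p = 0.000658, and 0.0580 with names averaged).

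The other Trp53inp1 feature, dimmer by level, read 9.69, 9.60, 9.09 and 9.04 on the TTF-derived arrays, 10.74, 10.69, 10.25 and 10.32 on the MEF-derived arrays and 9.24 and 9.27 on the MEF arrays, so MEF-derived values were again the highest and the MEF arrays again lay between the TTF-derived names. It gave 1.25 ± 0.23 for MEF-derived ieSCs against MEFs (adjusted p = 0.00145, and 0.0563 with names averaged) and -1.15 ± 0.19 between the origins (adjusted p = 0.00127, and 0.0695 with names averaged). For all ieSCs against MEFs the brighter feature was not called (0.41 ± 0.20, adjusted p = 0.124). The other feature was called there (0.67 ± 0.21, adjusted p = 0.0247, and 0.173 with names averaged), and the call was lost without either MEF array (0.0698 and 0.0618).

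Ccng1, which encodes cyclin G1, a p53-induced protein that brings a phosphatase to Mdm2, read 14.63, 14.53, 13.90 and 13.86 on the TTF-derived arrays, 15.44, 15.46, 15.36 and 15.25 on the MEF-derived arrays and 14.26 and 14.33 on the MEF arrays. The MEF-derived values were the highest on every array, and the MEF values lay between the 2 TTF-derived names. MEF-derived ieSCs were higher than MEFs by 1.08 ± 0.23 (adjusted p = 0.00343, and 0.0762 with names averaged). TTF-derived ieSCs were lower than MEF-derived ieSCs (-1.15 ± 0.19, adjusted p = 0.00128, and 0.0681 with names averaged), and they were not separated from MEFs (-0.07 ± 0.23, adjusted p = 0.854).

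Phlda3 encodes a membrane-binding protein that holds back the growth kinase Akt. It read 15.69, 15.48, 15.17 and 15.26 on the TTF-derived arrays, 16.77, 16.79, 16.68 and 16.56 on the MEF-derived arrays and 16.52 and 16.60 on the MEF arrays. Every TTF-derived value was below every other, and MEF-derived ieSCs and MEFs overlapped. It was lower in TTF-derived ieSCs than in MEFs by 2.24-fold (-1.16 ± 0.17, adjusted p = 0.00043) and lower than in MEF-derived ieSCs as well (-1.30 ± 0.14, adjusted p = 0.000105). MEF-derived ieSCs did not pass against MEFs (0.14 ± 0.17, adjusted p = 0.553), and the lower mean over all ieSCs (-0.51 ± 0.16, adjusted p = 0.0227) lost its call with names averaged (0.128) and without MEF array 2 (0.0785).

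Sesn2 encodes sestrin 2, a leucine sensor that restrains mTORC1 and is also induced by the stress factors Atf4 and Nrf2. It read 13.67, 13.48, 13.17 and 13.15 on the TTF-derived arrays, 13.54, 13.39, 13.39 and 13.34 on the MEF-derived arrays and 13.22 and 12.98 on the MEF arrays. The MEF-derived values were all above the MEF values and the TTF-derived values overlapped both groups. No comparison called it, with differences of 0.31 ± 0.19 for MEF-derived ieSCs against MEFs (adjusted p = 0.213), 0.27 ± 0.19 for TTF-derived ieSCs against MEFs (adjusted p = 0.310) and -0.05 ± 0.15 between the origins (adjusted p = 0.858).

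**Figure D2:**
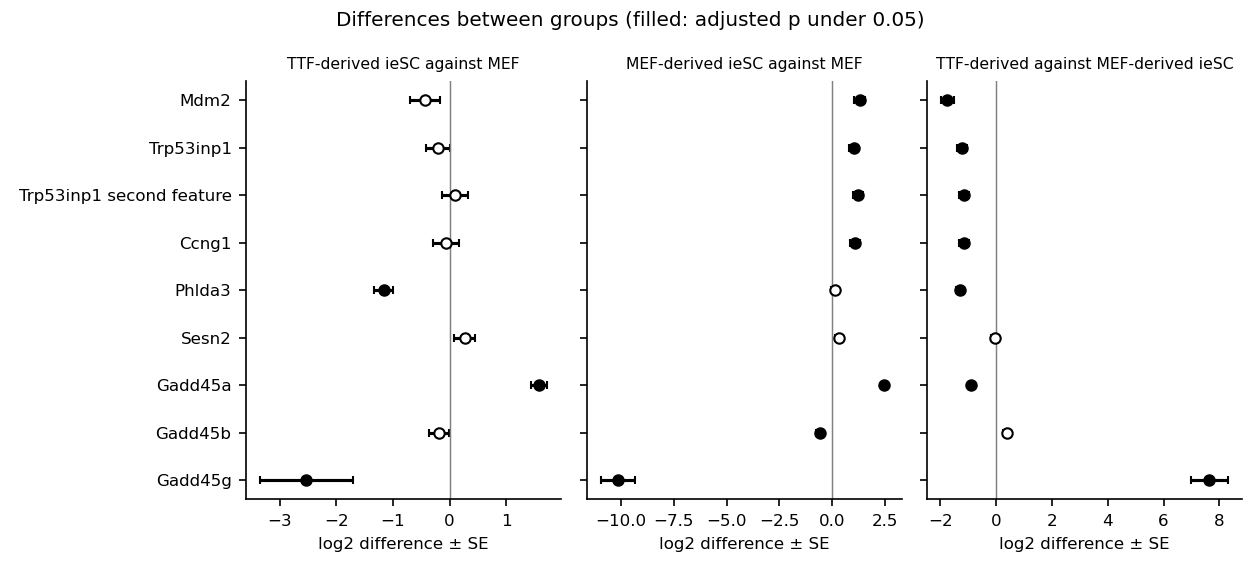
Log2 difference ± SE of each p53 target and Gadd45 feature, with a filled point where the adjusted p is under 0.05. The panels show TTF-derived ieSCs against MEFs, MEF-derived ieSCs against MEFs, and TTF-derived against MEF-derived ieSCs. Mdm2, Phlda3, Gadd45a, Ccng1 and both Trp53inp1 features lie left of 0 for TTF-derived minus MEF-derived ieSCs, where Gadd45g lies at 7.63.

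The Gadd45 genes did not all take the same direction. Gadd45a was higher in both kinds of ieSC than in MEFs, Gadd45g was lower in both, and Gadd45b was lower than in MEFs in MEF-derived ieSCs. Levels of different features are not comparable, so the members were not set against one another.

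Gadd45a read 12.92, 12.99, 12.68 and 12.82 on the TTF-derived arrays, 13.77, 13.89, 13.72 and 13.63 on the MEF-derived arrays and 11.28 and 11.25 on the MEF arrays. The 3 groups did not overlap, in the order MEF-derived ieSCs, TTF-derived ieSCs, MEFs, and each step of that order passed the test. The difference from MEFs was 2.49 ± 0.14 in MEF-derived ieSCs (a fold of 5.61, adjusted p = 5.04e-07), 1.58 ± 0.14 in TTF-derived ieSCs (adjusted p = 1.25e-05) and 2.04 ± 0.12 over all ieSCs (adjusted p = 1.01e-06). The difference between the origins was -0.91 ± 0.11 (adjusted p = 0.000248). Of the named genes, 95.7% had a lower difference than Gadd45a in MEF-derived ieSCs against MEFs and 92.4% in TTF-derived ieSCs against MEFs. All 4 calls held with names averaged, with adjusted p between 0.00241 and 0.0347.

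Gadd45g read 15.18, 15.08, 13.61 and 13.39 on the TTF-derived arrays, 7.81, 7.84, 5.60 and 5.48 on the MEF-derived arrays and 17.00 and 16.68 on the MEF arrays. No groups overlapped, and the MEF-derived arrays of name 2 stood close to the dim end while those of name 1 did not. The order was MEFs, TTF-derived ieSCs, MEF-derived ieSCs, and both steps passed the test. The difference from MEFs was -10.16 ± 0.81 in MEF-derived ieSCs (adjusted p = 6.26e-06) and -2.52 ± 0.81 in TTF-derived ieSCs (5.75-fold lower, adjusted p = 0.0326). The TTF-derived call was lost with names averaged (0.202) and without MEF array 1 (0.0910), MEF array 2 (0.0603), TTF-derived array 2a (0.0560) or 2b (0.0569). Between the origins the difference was 7.63 ± 0.66 (adjusted p = 2.90e-05), and 99.98% of the named genes had a lower one. Averaged names kept that call (0.0252) and that of MEF-derived ieSCs against MEFs (0.00822).

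Gadd45b read 12.73, 12.70, 12.97 and 13.004 on the TTF-derived arrays, 12.68, 12.70, 12.22 and 12.25 on the MEF-derived arrays and 13.03 and 13.05 on the MEF arrays. Both MEF values were above all ieSC values, the largest step being that to the MEF-derived arrays of name 2. It was lower in MEF-derived ieSCs than in MEFs (-0.58 ± 0.18, adjusted p = 0.0217), a call lost with names averaged (0.165) and without MEF array 1 (0.0508) or 2 (0.0589). TTF-derived ieSCs were not separated from MEFs (-0.19 ± 0.18, adjusted p = 0.433), nor the origins from each other (0.39 ± 0.14, adjusted p = 0.0648).

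The names of an origin differed from each other by more than any 2 arrays of a shared name did, save for Phlda3 and Sesn2 in MEF-derived ieSCs. Gadd45g differed the most, with name 2 below name 1 by 1.63 on the log2 scale in TTF-derived ieSCs (-1.63) and by 2.29 in MEF-derived ieSCs (-2.29), against a largest gap of 0.32 between arrays of a name. Ccng1 and Trp53inp1 differed by -0.70 and -0.67 in TTF-derived ieSCs and by -0.14 and -0.16 in MEF-derived ieSCs. Mdm2 differed by -0.40 and -0.72. Gadd45b was the only gene of the set whose names differed in opposite directions, 0.27 in TTF-derived and -0.45 in MEF-derived ieSCs. The 90th percentile of the absolute difference between names over all features was 0.61 in TTF-derived and 0.58 in MEF-derived ieSCs, and 3 and 2 of the 9 features lay beyond it. These differences have no test, since a name is not known to be a culture or an animal.

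**Figure D3:**
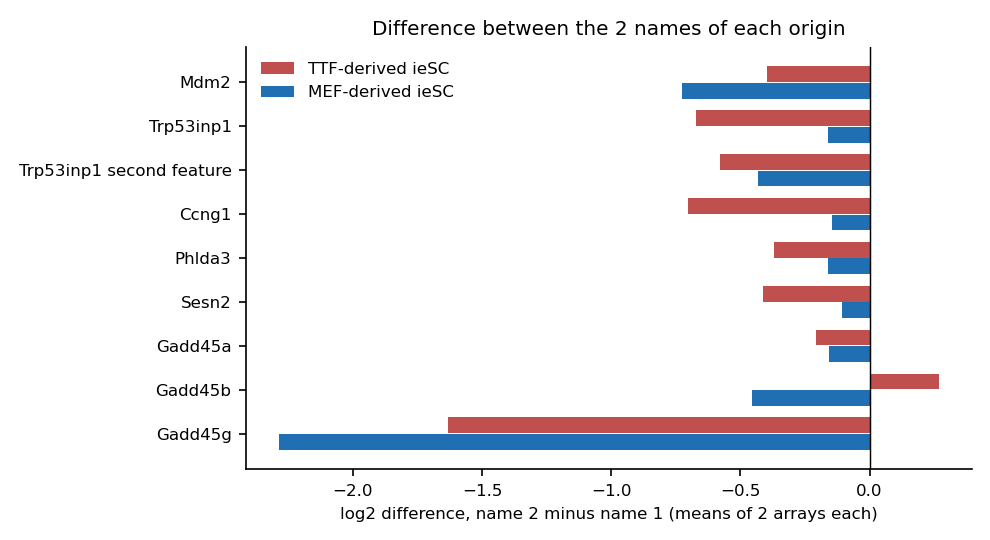
Log2 difference between the names of each origin (mean of the 2 arrays of name 2 minus that of name 1) for each p53 target and Gadd45 feature, with the TTF-derived bar above the MEF-derived bar. Gadd45g has the longest bars, at -1.63 and -2.29.

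The genes around p53 were taken from 9 lists. Among 16 regulators and relatives of p53, 2 were higher and 4 lower in TTF-derived than in MEF-derived ieSCs, 5 were higher and 1 lower in MEF-derived ieSCs against MEFs, and 4 were higher and 1 lower in TTF-derived ieSCs against MEFs. Their called share is no larger than that of all named genes in any of these comparisons (38.5%, 53.5% and 47.4%), so the counts say nothing particular of the list. They also move with single arrays: without MEF array 1 the higher counts against MEFs were 3 and 2, and with any 1 of the 10 arrays left out 2 or 3, in place of 4, were lower between the origins. With names averaged 0 were higher and 1 lower between the origins, 2 and 0 in MEF-derived and 1 and 1 in TTF-derived ieSCs against MEFs. Cdkn2a, the locus of the p19Arf protein that blocks Mdm2 and of the cell cycle inhibitor p16Ink4a, was at the dim end in TTF-derived ieSCs, 4.33 (range 4.07 to 4.54), and averaged 16.70 in MEF-derived ieSCs and 13.85 in MEFs. Its difference was -12.37 ± 0.14 between the origins (adjusted p = 2.22e-10), -9.52 ± 0.17 for TTF-derived ieSCs against MEFs (adjusted p = 1.60e-09) and 2.85 ± 0.17 for MEF-derived ieSCs against MEFs (adjusted p = 8.71e-07). The other of its 2 features gave -9.08, -5.86 and 3.22. Which of the transcripts of the 2 proteins each feature reads was not checked. Hipk2, the kinase that acts with Trp53inp1, was higher by 1.44 ± 0.16 in TTF-derived and 1.25 ± 0.16 in MEF-derived ieSCs against MEFs (adjusted p = 8.02e-05 and 0.000170), and for its other feature the differences were 1.28 and 0.62, which also passed. Between the origins the brighter feature did not pass (0.19) and the other did (0.67).

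Among 29 of the 30 other p53 targets that could be tested, 3 were higher and 14 lower in TTF-derived than in MEF-derived ieSCs, with a median difference of -0.43. In the fit to 10 arrays, 17.8% of all named genes were higher and 20.7% lower between the origins. With names averaged the counts of the list were 1 and 4. Against MEFs, 11 were higher and 5 lower in MEF-derived ieSCs (median 0.11), which averaged names left at 6 and 4. The TTF-derived ieSCs had 6 higher and 10 lower (median -0.22), which averaged names left at 3 and 3. Over all named genes the called shares against MEFs were 53.5% for the MEF origin and 47.4% for the TTF origin. The called share of this list was not far above either, so its counts against MEFs are not a result about the list. Perp, a cell adhesion gene, was higher than in MEFs in both, by 2.58 in TTF-derived ieSCs and by 4.21 in MEF-derived ieSCs, and the origins differed by -1.64 ± 0.21 (adjusted p = 0.000346). Tigar, which lowers glycolysis, differed between the origins by -0.80 ± 0.10 (adjusted p = 0.000252), and the antiproliferative gene Btg2 by 1.01 ± 0.13 (adjusted p = 0.000308). Ddit4, an inhibitor of mTORC1, was higher than in MEFs by 2.39 ± 0.18 over all ieSCs (adjusted p = 4.65e-06).

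Cdkn1a, the p21 cell cycle inhibitor and best-known p53 target, was named after its values were seen, since the rule for naming did not take it. It averaged 15.02 (range 14.31 to 15.81) in TTF-derived ieSCs, 17.01 in MEF-derived ieSCs and 15.42 in MEFs. It was lower in TTF-derived than in MEF-derived ieSCs (-1.99 ± 0.35, adjusted p = 0.00184, and 0.0736 with names averaged), with 11 of its 12 features passing. Those features were read on the same arrays and are not independent. It was higher in MEF-derived ieSCs than in MEFs (1.59 ± 0.42, adjusted p = 0.0118, and 0.118 with names averaged), and TTF-derived ieSCs were not separated from MEFs (-0.40, adjusted p = 0.507).

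Cell cycle genes also differed between the groups, and between the origins in the direction opposite to most called p53 targets. Of 9 tested proliferation genes, 8 were higher in TTF-derived than in MEF-derived ieSCs (17.8% of all named genes were higher). Against MEFs, 9 were lower in MEF-derived ieSCs (25.0% of all named genes), and 5 were higher and 0 lower in TTF-derived ieSCs (24.5% and 22.9%). Not all of these calls against MEFs held with names averaged. The mean level of all 10 genes of this list, with Aurkb, which was at the dim end and below the filter, was 11.10 to 11.47 on the TTF-derived arrays. It was 7.38 to 7.57 on the MEF-derived arrays, against 10.68 and 10.74 on the MEF arrays. Mki67, a marker of cycling cells, averaged 13.87 in TTF-derived ieSCs, 6.49 in MEF-derived ieSCs and 13.09 in MEFs. The part of proliferation in the differences of the p53 targets was not tested.

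**Figure D4:**
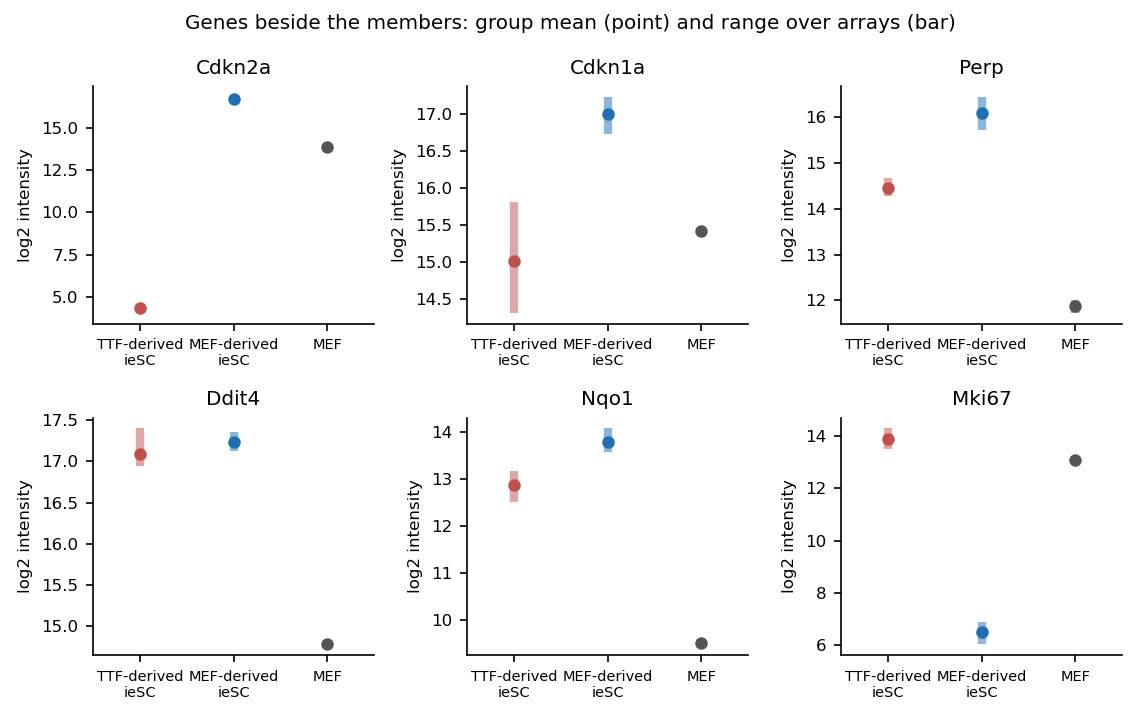
Group mean (point) and range over arrays (bar) of the log2 intensity of genes beside the p53 targets, with TTF-derived ieSCs, MEF-derived ieSCs and MEFs from left to right. Cdkn2a is at the dim end in TTF-derived ieSCs (4.33), and Mki67 is lowest in MEF-derived ieSCs (6.49).

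In the BCL2 family, which sets the threshold for apoptosis, 8 of 12 genes were higher and 1 lower over all ieSCs against MEFs, while 5 were higher and 0 lower with names averaged and 6 and 0 without MEF array 2. In the same comparison 27.2% of all named genes were higher and 24.5% lower. Bok, a pro-apoptotic member, was higher by 1.89 ± 0.14 (adjusted p = 4.54e-06), and the anti-apoptotic Bcl2l1 by 0.77 ± 0.11 (adjusted p = 0.000345). Bmf, a pro-apoptotic BH3-only gene, averaged 12.54 in TTF-derived ieSCs, 9.46 in MEF-derived ieSCs and 9.42 in MEFs, a difference of 3.08 ± 0.25 between the origins (adjusted p = 1.70e-05). Among the partners of Gadd45 proteins, 5 of 11 tested genes were higher and 1 lower in all ieSCs against MEFs, and 3 and 2 with names averaged (5 and 2 without MEF-derived array 2a or 2b). That share is near the 51.7% of all named genes and is not a result about the list. Map3k4, the kinase that Gadd45 proteins bind, was higher by 1.14 ± 0.11 (adjusted p = 1.97e-05), and Map2k7, a kinase of the Jnk pathway, by 1.09 ± 0.11 (adjusted p = 2.90e-05). Map2k6, a kinase of the p38 pathway, averaged 4.21 in TTF-derived and 4.67 in MEF-derived ieSCs, both at the dim end, against 8.51 in MEFs. Cdk1, which Gadd45 proteins inhibit, was higher in TTF-derived than in MEF-derived ieSCs by 2.58 ± 0.32 (adjusted p = 0.000268), while its other kept feature gave 1.23 and did not pass.

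Atf4 and Nrf2 direct the responses to amino acid shortage and to oxidative stress, and 12 of 15 genes of these responses were higher and 1 lower over all ieSCs than in MEFs, with a median difference of 1.03. With names averaged 10 were higher and 0 lower, and the lower gene lost its call in 9 of the 10 fits that left out 1 array. Among all named genes, 27.2% were higher and 24.5% lower over all ieSCs than in MEFs. Nqo1, a detoxifying Nrf2 target, was higher by 3.83 ± 0.21 (adjusted p = 4.66e-07), and Chac1, an Atf4 target, by 2.20 ± 0.13 (adjusted p = 8.53e-07). Between the origins 3 of the 15 were higher and 4 lower (38.5% of all named genes passed this test), and 1 and 2 with names averaged. Hmox1, the heme oxygenase induced by Nrf2, was lower in TTF-derived ieSCs (-1.72 ± 0.15, adjusted p = 3.57e-05), and Chac1 was higher there (1.19 ± 0.12, adjusted p = 6.24e-05).

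**Figure D5:**
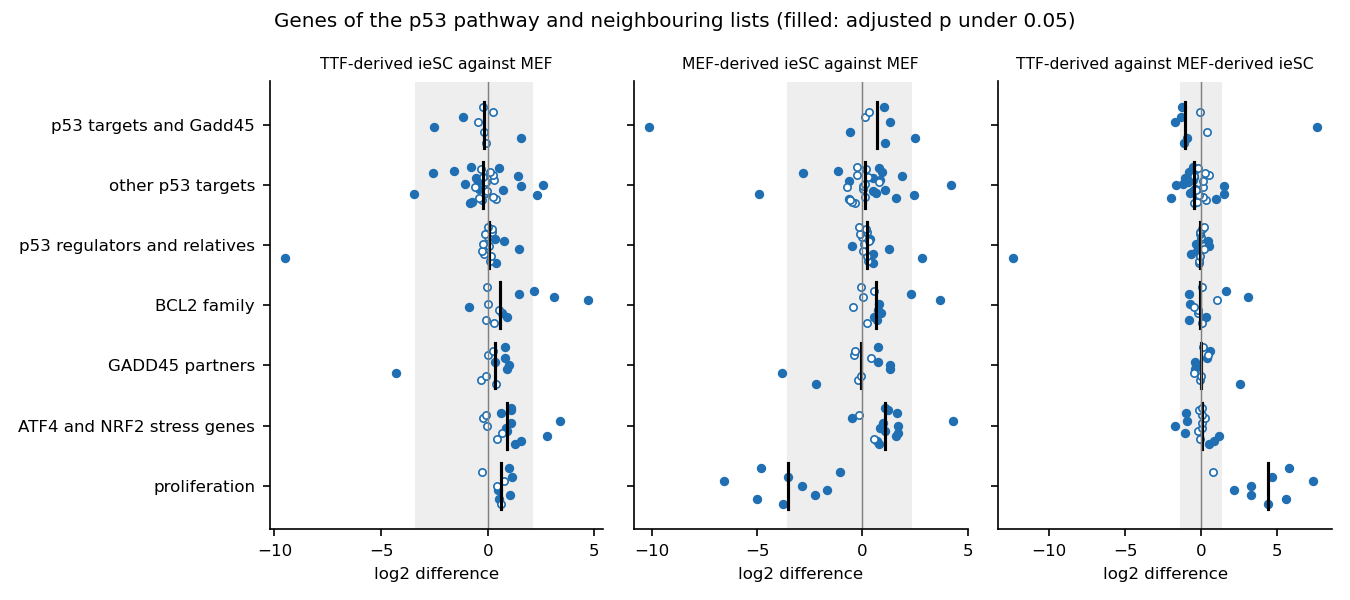
Log2 difference of every tested gene of the p53-related lists, 1 row to a list, with filled points where the adjusted p is under 0.05. The panels show TTF-derived ieSCs against MEFs, MEF-derived ieSCs against MEFs, and TTF-derived against MEF-derived ieSCs. All ieSCs against MEFs are not drawn. For TTF-derived minus MEF-derived ieSCs most filled points of the other p53 targets lie left of 0 (14 of 17).

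The genes whose pattern over the 10 arrays was most like that of Mdm2 were Xaf1, Lyrm1 and Bend6, with Pearson's r of 0.993, 0.993 and 0.992 between arrays, and 256 named genes had an r over 0.95 with Mdm2. For Gadd45a they were Vegfa, Serpinb1b and Eml6, with r of 0.997, 0.996 and 0.996, and 520 genes had an r over 0.95. The arrays form 3 groups, so an r this high describes little more than that a gene's levels are ordered and spaced alike over the groups.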

How the data were processed

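The authors' deposited table holds log2 intensity for 62976 features on the 10 arrays, and the submitters' processing notes name limma, without a version. Once sorted, those columns lie within 0.0379 of each other above the 40th percentile, as after quantile normalization, so a change in total mRNA per cell cannot be seen. The log base was taken as 2 from the range of values. Background correction and detection flags are not given in the sources used here. Features were named from the platform annotation, with symbols updated through RefSeq (GRCm38.p6, names only).

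Features above the 40th percentile of their array on at least 2 arrays were kept: 42617, of which 25200 were named, for 16650 genes. Where a gene had several kept features, the brightest on average over the arrays stands for it. limma 3.58.1 (R 4.3.3, statmod 1.5.0) fitted a mean for each of the 3 groups to all 10 arrays, with the shared name as a random block (duplicateCorrelation, consensus 0.468) and 7 residual degrees of freedom. Tests were two-sided and moderated, with Benjamini-Hochberg adjustment over all 42617 features. The members and the 9 lists (134 genes) were chosen with earlier results of these data known. Genes of the lists were named by smallest p, up to 3 for each list and comparison, and a selection of these is printed. The number of arrays limits the precision. The alternatives covered the block, the filter, the scaling, the moderation and each array left out.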

Additional observations from a re-analysis of the deposited data

Results flagged for a closer look

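The difference between ieSC origins was itself tested, and it passed for 7 of the 9 features (33.8% of all 42617 tested features passed). With names averaged it passed for Mdm2, Phlda3, Gadd45a and Gadd45g, and was lost for Ccng1 (adjusted p = 0.0681) and for both features of Trp53inp1 (0.0580 and 0.0695). TTF-derived minus MEF-derived ieSCs, the log2 difference was -1.75 for Mdm2, -1.30 for Phlda3, -0.91 for Gadd45a and -1.15 for Ccng1. It was -1.23 for the brighter and -1.15 for the other feature of Trp53inp1. Gadd45g went the other way, with 7.63. All 4 TTF-derived arrays lay on the same side of all 4 MEF-derived arrays for each of these features (above for 22.1% and below for 26.2% of all named genes). The origins also differed in the proliferation genes described above, whose part in these differences was not tested.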

How the results depend on the processing

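Across 19 alternatives, 652 of 680 differences of the p53 target and Gadd45 features kept their direction and side of the threshold, 20 lost a call, 8 gained one and 0 changed sign. Averaging the arrays of a name left 12538 features called (19005 as reported) for all ieSCs against MEFs, 10417 (17255) for TTF-derived ieSCs against MEFs and 5276 (14414) between the origins. It left 1 member lower (2 as reported) in each of the 3 comparisons with MEFs, 1 higher (4) in MEF-derived ieSCs against MEFs and 3 lower (5) between the origins. With 1 feature a named gene, and so fewer features tested, 8248, 8524, 7512 and 5998 were called in all ieSCs, MEF-derived and TTF-derived ieSCs against MEFs and between the origins. The replicate block on name number 1 or 2 gave 4 members higher (1 as reported) for all ieSCs against MEFs and 2 (1) between the origins, where independent arrays and the trended robust prior also gave 2, and it called 24304, 24980, 22832 and 20554 features. The number is not stated to mark a shared batch, and with 2 pairs the correlation of name 2 minus name 1 between the origins was 0.273. Leaving out 1 array gave 1 to 2 members lower in each of the 3 comparisons with MEFs. A lone MEF array is assumed there to vary like the other groups. Apart from 1 feature a named gene, where the smaller number tested sets the count, the cause of these shifts was not tested.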
